A study of Homo sapiens with 6 samples.

Results

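The replication-dependent histone genes encode the linker histone H1 and the core histones H2A, H2B, H3 and H4 that package newly copied DNA. They were taken as every gene whose current symbol places it in the H1-1 to H1-6, H2AC, H2BC, H3C or H4C series. Most of these are the HIST1, HIST2 and HIST3 genes of older naming. Each gene also had to have a probe set paired with no other symbol. There were 57 such genes among 18417 named genes: 6 for H1, 14 for H2A, 16 for H2B, 8 for H3 and 13 for H4. H4C14 and H4C15 had the same value on every array, so the 57 genes rest on 56 separate measurements. Another 12 genes of these series had only probe sets listed for several symbols.

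The cells were HCT116, a human line established from a colorectal carcinoma, and were collected 48 h after transient transfection of double-stranded siRNA. By the labels, the cells of the 3 arrays labelled siChe-1 received a duplex against Che-1, the product of AATF. Those of the 3 arrays labelled control are given as having received one against GFP, a jellyfish protein with no human gene. Total RNA (6 micrograms) was labelled with biotin by the Affymetrix whole-transcript protocol, and values are log2 RMA intensities. As a model the design is limited to 1 cell line and 1 time after a transient transfection. Nothing in the labels says that the replicates were separate cultures, so p-values measure the spread between these arrays.

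Most histone mRNAs are not polyadenylated. They end in a conserved stem-loop bound by SLBP and are cleaved from the precursor with the help of the U7 snRNP, and they are made mainly in S phase, when NPAT drives their transcription at histone locus bodies, and destroyed when replication stops. The whole-transcript protocol primes along the RNA and not from the poly(A) tail, so such transcripts can be read. In bulk RNA a change in the share of cells in S phase and a change in histone mRNA per cell cannot be told apart.

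AATF went against the labels. It read 8.53, 8.81 and 8.87 in the arrays labelled siChe-1, against 7.55, 7.75 and 7.55 in those labelled control, a 2.17-fold higher level (log2 difference 1.12 ± 0.13 SE, 95% confidence interval 0.82 to 1.41, limma adjusted p = 0.00122). Groups are therefore called by their labels, "higher" means higher in the arrays labelled siChe-1, and each direction would turn if the labels were exchanged. The array medians lay between 4.95 and 5.05. Epithelial markers were bright (EPCAM averaged 10.12 in the arrays labelled siChe-1 and 10.41 in those labelled control). Of 12 markers of leukocytes, fibroblasts, erythroid cells, liver and brain, 11 had mean values under 5 in both groups, so a histone probe set under 5 is not shown to be above background. RMA intensities of different probe sets are not comparable as amounts, and levels are not compared between genes here.

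The promoters of these genes differ by histone type, and the DNA upstream of the 3 genes that changed is shown to make that visible. The 250 bases before the annotated start were read from RefSeq promoters (GRCh38.p14), which held 52 of the 57 genes. The others were H2AC12, H3C11, H3C12, H4C1 and H4C3. The windows below lie at chr6:26199266-26199515 (plus strand), chr6:27807923-27808172 (plus strand) and chr6:26189113-26189362 (minus strand). They run 5′ to 3′ toward the gene, with matches on either strand in capitals to the octamer ATTTGCAT (the site of the factor OCT1), CCAAT (the site of NF-Y), TATAAA (the TATA box), GGTCCG (the core of H4 site II, bound by HINFP) and AAACACA (the H1 box). None of the 5 motifs contains another. The motifs were chosen after the values were seen.
H2BC7: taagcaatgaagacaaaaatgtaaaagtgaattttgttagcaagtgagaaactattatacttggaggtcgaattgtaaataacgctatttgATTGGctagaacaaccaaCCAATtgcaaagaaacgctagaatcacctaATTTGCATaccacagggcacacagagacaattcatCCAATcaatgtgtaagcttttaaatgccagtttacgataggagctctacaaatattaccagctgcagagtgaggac
H2AC13: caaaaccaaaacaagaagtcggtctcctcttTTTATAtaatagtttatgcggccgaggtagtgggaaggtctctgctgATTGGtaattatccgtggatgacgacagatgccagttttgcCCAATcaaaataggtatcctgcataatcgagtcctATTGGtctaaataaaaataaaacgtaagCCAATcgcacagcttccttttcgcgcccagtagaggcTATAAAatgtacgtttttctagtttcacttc
H4C4: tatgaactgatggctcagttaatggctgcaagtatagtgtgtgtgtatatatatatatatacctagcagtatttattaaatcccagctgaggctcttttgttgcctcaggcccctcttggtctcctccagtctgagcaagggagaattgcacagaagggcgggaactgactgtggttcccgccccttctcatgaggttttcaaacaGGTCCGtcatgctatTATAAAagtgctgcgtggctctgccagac
The H2BC7 window held 1 octamer and 3 CCAAT boxes. The H2AC13 window held 4 CCAAT boxes and 2 TATA boxes on opposite strands, and the H4C4 window held 1 H4 core and 1 TATA box. The start of H2BC13, which points away from H2AC13, lies 244 bases from that of H2AC13. The H2BC13 window is thus nearly the same DNA and held the same counts.

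The motifs differed by histone type. The octamer was found in 13 of 16 H2B and 10 of 13 H2A windows and in 0 of the 6 H1, 6 H3 and 11 H4 windows, against 1.63% of all 35116 RefSeq promoters, which include these genes. Many H2A and H2B windows are the same DNA read from opposite ends, so their matches are not separate. The H4 core was found in 10 of 11 H4 windows, against 9.43% of all promoters, and in 1 window each of H2A, H2B and H3. All 6 H1 windows held the H1 box, against 4.82% of all promoters, and 0 windows of the other types did. CCAAT occurred in 84.6% of the 52 windows, against 32% of all promoters, with 3 of 11 H4 windows among them. A TATA box occurred in 65.4%, against 10.7%. These matches are letters in a window and not shown to be occupied.

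**Figure D1:**
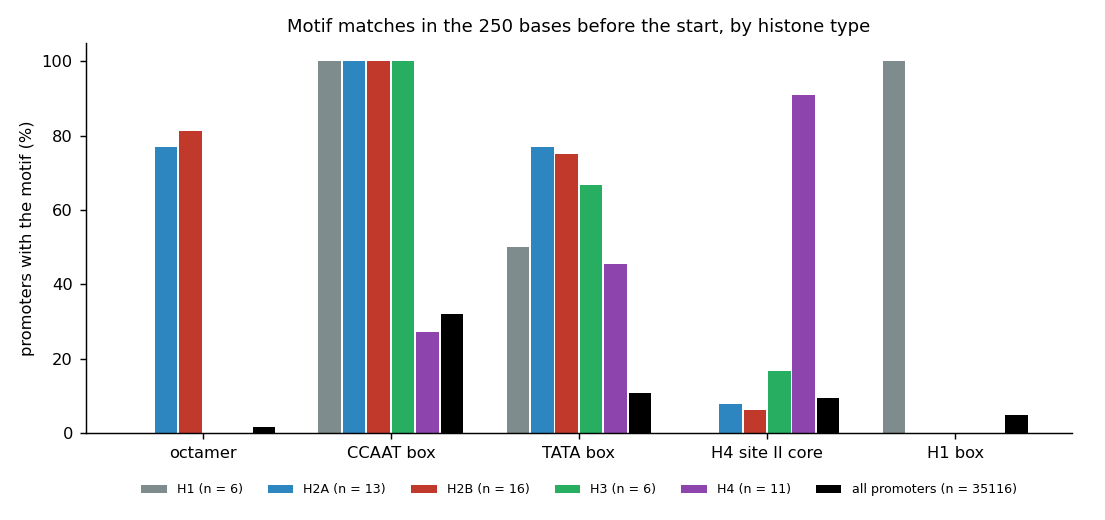
Percentage of RefSeq promoters (vertical axis) with at least 1 match to each motif (horizontal axis) in the 250 bases before the start, as bars for the 5 histone types and, in black, all 35116 promoters. The octamer marks H2A and H2B (76.9% and 81.2%), the H4 core marks H4 (90.9%) and the H1 box marks H1 (100%).

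To show the sites themselves, 30 bases around the motif are given for 5 H2B genes and 5 H4 genes, in capitals for the octamer or the H4 core. They are windows of GRCh38.p14 on chromosome 6, except H4C14 on chromosome 1 (chr1:149832599-149832628, plus strand). The H2B windows are chr6:26199394-26199423, chr6:27814963-27814992, chr6:26251554-26251583, chr6:26272875-26272904 and chr6:27893265-27893294, all on the plus strand. The other H4 windows are chr6:26189139-26189168, chr6:26027312-26027341 and chr6:26285563-26285592 on the minus strand and chr6:27139224-27139253 on the plus strand.
H2BC7: agaatcacctaATTTGCATaccacagggca
H2BC14: ttctactcctaATTTGCATaataacattta
H2BC9: attaagcacctATTTGCATaaaagacctac
H2BC10: cagccagcctcATTTGCATatacacgaggt
H2BC17: gcttcctcttaATGCAAATgagctttctga
H4C4: ggttttcaaacaGGTCCGtcatgctattat
H4C2: agttctcaataaGGTCCGatgttcgtgtat
H4C9: ggttttcagtctGGTCCGcagaggttaccc
H4C8: agtcttcaattaGGTCCGaattcccggcat
H4C14: ggttttcaatctGGTCCGatactcttgtat
The octamer lay 45 to 49 bases before the start in H2BC14, H2BC9 and H2BC10, and 111 bases before it in H2BC7. Of the H2B genes not shown, H2BC1, H2BC6, H2BC3 and H2BC4 had the octamer 104, 108, 120 and 123 bases before the start. H2BC8, H2BC11, H2BC12 and H2BC21 had the octamer 46 to 48 bases before the start. In H2BC17 it matched on the opposite strand, 149 bases before the start. In the 5 H4 windows the core lay 44 to 46 bases before the start. H2BC10, H4C8 and H4C9 had mean values under 5, so their differences are not read against these sites.

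Of the 57 genes, 3 rose in the arrays labelled siChe-1 and 0 fell at a limma adjusted p under 0.05 over all 18417 genes. The genes were H2BC7, H2AC13 and H4C4, and 54 genes did not pass. Over all genes 1.19% were called higher and 2.52% lower, 3.72% in all. At an unadjusted p under 0.05, 13 histone genes were higher (22.8%, against 7.88% of all genes) and 0 were lower (against 9.77% of all genes). In 12 genes every siChe-1 array exceeded every control array (21.1%, against 10.6% of all genes), and in 1 gene, H2AC8, every siChe-1 array was lower (against 13.3% of all genes). The median difference of the 57 genes was 0.13 on the log2 scale, against 0.0051 for all genes, and 44 of the 57 lay above 0 (against 50.9% of all genes).

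Markers of other cell types, which read near the low end of the scale, also lay above 0. All 12 did, with a median of 0.15 and 0 called. In 4 of them every siChe-1 array exceeded every control array (33.3%, against 10.6% of all genes and 21.1% of the histone genes). The median value of the 12 markers was 3.62 to 3.70 in the 3 siChe-1 arrays and 3.41 to 3.50 in the 3 control arrays. PTPRC averaged 2.46 in the siChe-1 arrays and 2.41 in the control arrays, while TYROBP averaged 6.07 in the siChe-1 arrays and 5.84 in the control arrays. The part of this shift in the histone median was not tested. With arrays centred on their medians, 37 of 57 histone genes lay above 0 with a median of 0.062, where all genes had a median of -0.059 and 9 of 12 markers lay above 0.

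The 31 histone genes with a mean value of 5 or more held all 3 calls, and their median difference was 0.22. Other genes of that range had a median of -0.022. The 26 histone genes under 5 had a median of 0.084, against 0.027 for other genes under 5, and 0 of them were called. These 26 included H1-6, H2AC1 and H2BC1, which encode testis histones.

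**Figure D2:**
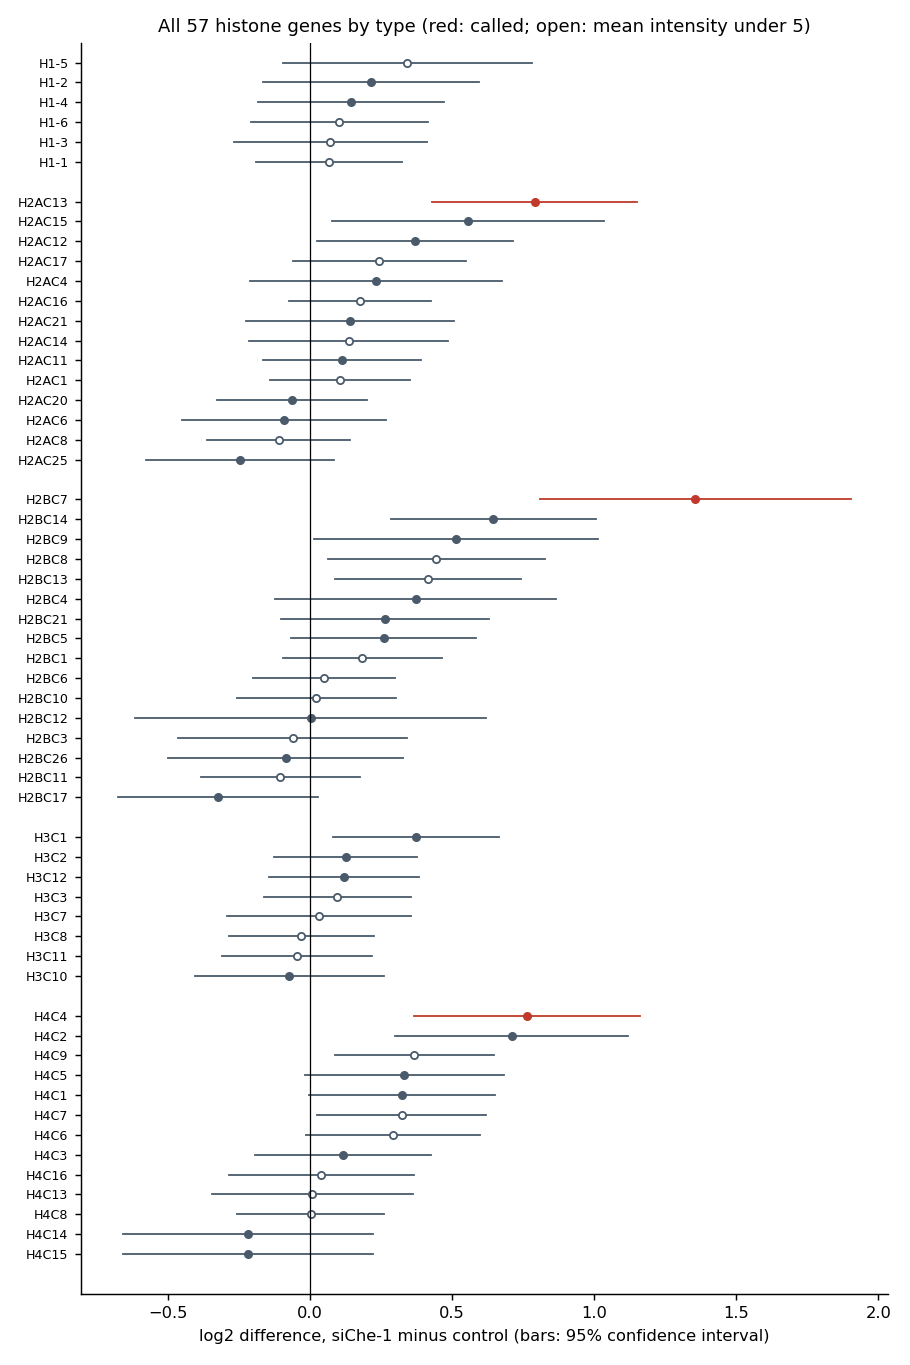
Log2 difference, siChe-1 minus control (horizontal axis), of all 57 histone genes (rows, grouped by type), with 95% confidence intervals as bars. The 3 called genes in red are H2AC13, H2BC7 and H4C4, and open points mark mean intensities under 5.

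H2B, which pairs with H2A in the outer part of the nucleosome, held the gene with the largest rise of the 57 and the widest range of differences of the 5 types. Of 16 genes, 1 rose and 15 did not pass, 12 lay above 0, and the median difference was 0.22. H2BC7 read 8.86, 8.15 and 8.56 in the siChe-1 arrays, against 7.37, 6.60 and 7.52 in the control arrays. All siChe-1 arrays stood above all control arrays, and control replicate 2 was the lowest of the 6. The difference was 1.36 ± 0.25 (SE), a 2.56-fold rise (interval 0.81 to 1.91, adjusted p = 0.0147 by limma). An exact two-sided permutation test of H2BC7 over the 20 splits gave p = 0.1, the smallest that 3 arrays against 3 allow, and the same p was found for H2AC13 and H4C4.

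H2BC14 read 12.31, 12.04 and 11.81 in the siChe-1 arrays, against 11.62, 11.18 and 11.42 in the control arrays. Its groups did not overlap, but it did not pass (0.65 ± 0.16 SE, limma adjusted p = 0.0590). It passed with the dimmest 40% of genes left out (limma adjusted p = 0.0463), with an intensity trend and robust prior (0.0446) and with array weights (0.0300), and in 0 of the 6 fits that left out an array. H2BC9 read 7.80, 6.74 and 7.12 in the siChe-1 arrays, against 6.62, 6.76 and 6.74 in the control arrays. Only siChe-1 replicates 1 and 3 lay above all control arrays, and the difference of 0.51 (95% confidence interval 0.014 to 1.01) had adjusted p = 0.267. H2BC12 differed by 0.0030, with an interval of -0.61 to 0.62 and with siChe-1 replicate 1 at 8.15 beside 6.85 and 7.19 in siChe-1 replicates 2 and 3. The lowest difference of any histone gene was H2BC17, at -0.32 (interval -0.68 to 0.03). H2B coding sequences are near-identical between copies, so signal can be shared between their probe sets.

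H2A, the partner of H2B, had 1 gene that rose and 13 that did not pass, with 10 of 14 above 0 and a median difference of 0.14. H2AC13 read 9.10, 8.66 and 8.73 in the siChe-1 arrays, against 8.12, 7.78 and 8.23 in the control arrays. The groups did not overlap, and the difference was 0.79 ± 0.16 (SE), or 1.73-fold (limma adjusted p = 0.0264). A further probe set, listed for both H2AC13 and an H3 gene, differed by 0.29 (adjusted p = 0.461). H2AC15 read 7.90, 8.30 and 8.39 in the siChe-1 arrays, against 7.14, 7.96 and 7.82 in the control arrays. Control replicate 2 lay above siChe-1 replicate 1, and the difference of 0.56 did not pass (adjusted p = 0.205). H2AC12 differed by 0.37 (adjusted p = 0.245). H2AC20 and H2AC21, the H2A genes with the brightest probe sets, differed by -0.06 (interval -0.33 to 0.20) and 0.14 (interval -0.22 to 0.51). A further probe set, listed for both and for H2AC18 and H2AC19, differed by -0.29 (limma unadjusted p = 0.0292, adjusted p = 0.293).

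H4, which pairs with H3 in the core of the nucleosome, had the highest median difference of the 5 types, 0.29. Of its 13 genes, 1 rose, 12 did not pass, and 11 lay above 0. H4C4 read 8.49, 8.91 and 8.97 in the siChe-1 arrays, against 7.70, 8.13 and 8.26 in the control arrays. Its groups did not overlap, with replicate 1 the lowest of each, and the difference was 0.76 ± 0.18 (SE), or 1.70-fold (limma adjusted p = 0.0463). H4C2 read 9.23, 9.73 and 9.97 in the siChe-1 arrays, against 8.79, 9.10 and 8.91 in the control arrays. Its groups did not overlap either, and its difference of 0.71 (interval 0.30 to 1.12) missed the threshold at adjusted p = 0.0657. It passed after a further quantile normalization (limma adjusted p = 0.0498), with array weights (0.000278) and without siChe-1 replicate 1 (0.00253). H4C9, under 5, differed by 0.37 (adjusted p = 0.147). H4C3 differed by 0.12 (interval -0.19 to 0.43). The shared signal of H4C14 and H4C15 read 10.13, 9.37 and 9.66 in the siChe-1 arrays, against 10.14, 10.00 and 9.67 in the control arrays, a difference of -0.22 (interval -0.66 to 0.22).

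H3, the partner of H4, had the lowest median difference of the 5 types. It was not the lowest with array weights (H3 0.12, against 0.049 for H1) or without siChe-1 replicate 1 (H3 0.12, against 0.059 for H1). Of 8 genes 0 passed by limma, 1 was higher at an unadjusted p under 0.05, and the median was 0.064. That gene was H3C1, with 7.54, 7.76 and 7.85 in the siChe-1 arrays, against 7.24, 7.48 and 7.30 in the control arrays. The groups did not overlap, and the difference was 0.37 (interval 0.08 to 0.67, adjusted p = 0.162). H3C2 differed by 0.13 (interval -0.13 to 0.38) and H3C12 by 0.12 (interval -0.14 to 0.39). Intervals of the remaining 5 ran from -0.40 at the low end of H3C10 to 0.36 at the high end of H3C7. Of those 5, H3C3, H3C7, H3C8 and H3C11 had means under 5, where a change may not be readable.

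H1, which binds the linker DNA between nucleosomes, had 0 of 6 genes past the threshold and 0 at an unadjusted p under 0.05 by limma, although all 6 differences lay above 0 (median 0.12). H1-2 read 8.57, 8.12 and 8.19 in the siChe-1 arrays, against 8.19, 8.28 and 7.77 in the control arrays, and the groups overlapped. H1-4 read 12.10, 11.95 and 11.62 in the siChe-1 arrays, against 11.88, 11.70 and 11.65 in the control arrays. It differed by 0.15 (interval -0.18 to 0.47), and by -0.051 with array weights. H1-5 differed by 0.34 (interval -0.09 to 0.78) but averaged 3.46 in the siChe-1 arrays and 3.12 in the control arrays, levels not shown to be above background, as did H1-1, H1-3 and H1-6.

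**Figure D3:**
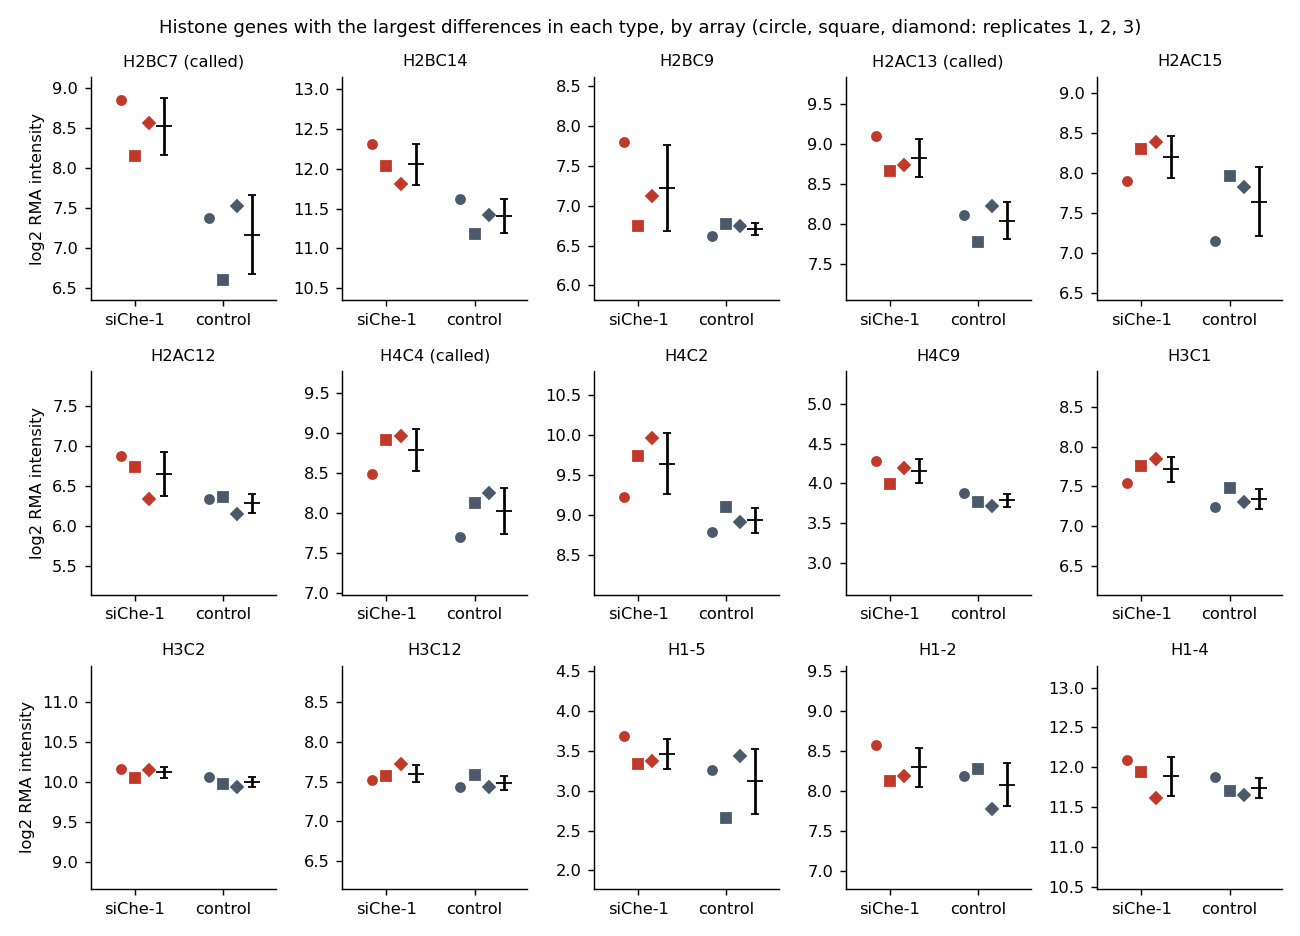
Log2 RMA intensity (vertical axis) on each array for the 3 genes with the largest difference in each type, with siChe-1 arrays in red left of control arrays in blue-grey, and mean ± SD (n = 3) in black beside each group. Vertical scales differ in origin but span the same range. The groups stand fully apart in H2BC7, H2AC13 and H4C4, and also in H2BC14, H4C2, H4C9 and H3C1, which did not pass.

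The 3 siChe-1 arrays differed in which types read high. Set against the mean of the control arrays, the median H2B gene stood 0.47 higher in siChe-1 replicate 1, 0.039 in replicate 2 and 0.13 in replicate 3. The median H1 gene stood 0.35, 0.065 and 0.048 higher. The median H4 gene stood 0.19, 0.16 and 0.22 higher, and the median H3 gene 0.032, 0.060 and 0.15. Within the siChe-1 group, 13 of 16 H2B genes and 5 of 6 H1 genes were highest in replicate 1, against 43.7% of all genes. Of the 8 H3 genes 5 were lowest there, against 38.8% of all genes. Of the 13 H4 genes 5 were highest and 6 lowest there, near the shares of all genes. The related lists also differed between these arrays. Their medians from the control mean in siChe-1 replicates 1, 2 and 3 were -0.23, -0.10 and -0.12 for S phase genes, and -0.15, 0.080 and 0.17 for G2 and mitosis genes. They were -0.29, -0.036 and -0.22 for histone mRNA factors and -0.18, -0.0068 and -0.053 for chaperones. Markers of other cell types stood at 0.28, 0.14 and 0.10. The part of these in the histone values was not tested.

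Leaving out siChe-1 replicate 1 gave 5 histone genes higher, H2AC13, H2BC7, H3C1, H4C2 and H4C4, where 4.01% of all genes were called higher. The medians of H1 and H2B were then 0.059 and 0.13, and that of H3 was 0.12. Without control replicate 1 no histone gene passed by limma (H2BC7 adjusted p = 0.0510). H2BC7 alone passed in the 3 fits that left out siChe-1 replicate 3, control replicate 2 or control replicate 3. In the fit that left out siChe-1 replicate 2, H2AC13 and H2BC7 passed. Of the 6 such fits H2BC7 thus passed in 5, H2AC13 in 2 and H4C4 in 1. With every probe set tested, 0 passed, and H2BC7 had adjusted p = 0.0766. H4C4 also missed the threshold with arrays centred on their medians (adjusted p = 0.0575).

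**Figure D4:**
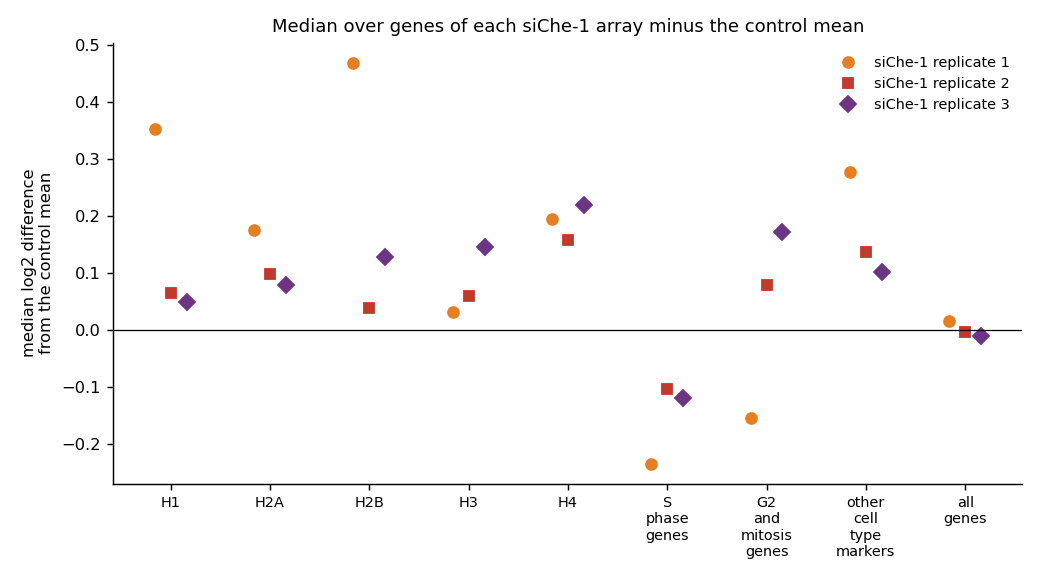
Median over the genes of each set (horizontal axis) of the log2 difference between a siChe-1 array and the mean of the 3 control arrays (vertical axis), with a symbol for each siChe-1 replicate. In H1 and H2B replicate 1 stands apart at 0.35 and 0.47, while the 3 replicates lie between 0.16 and 0.22 in H4.

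Most of these genes lie in clusters on chromosomes 6 and 1. Of the 52 with a RefSeq promoter, 44 lie on chromosome 6, where 37 had differences above 0, all 3 calls fell, and the median was 0.16. The 7 on chromosome 1 had a median of -0.085, with 2 above 0, and H4C16 on chromosome 12 differed by 0.041. The chromosome 1 genes ranged from -0.24 for H2AC25 to 0.26 for H2BC21, and limma called 0 of them, with no unadjusted p under 0.05. A probe set listed for several genes, H2AC20 and H2AC21 among them, differed by -0.29 (unadjusted p = 0.0292 by limma). H4C14 and H4C15, which share their values, are among those 7. The difference between the chromosomes was not tested. H4C4 and H2BC7 are neighbours among the measured genes of chromosome 6, with starts 10404 bases apart and H2AC7 and H3C4 between them.

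Some of these genes share the DNA between their starts. In 9 pairs an H2A and an H2B gene point away from each other with starts 215 to 248 bases apart. Both differences lay above 0 in 3 pairs, both below 0 in 1 pair, and on opposite sides of 0 in 5 pairs. H2AC13 (0.79) faces H2BC13 (0.42, adjusted p = 0.163, under 5). H2BC14 (0.65) faces H2AC14 (0.14). H2AC17 (0.24) faces H2BC17 (-0.32). The difference within a pair was not tested, and in 6 of the pairs at least 1 gene had a mean under 5.

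The list of histone mRNA factors also holds regulators of histone transcription, such as NPAT, and cell cycle genes, such as CDC25A. Of its 24 genes, 1 rose, 2 fell and 21 did not pass, with a median difference of -0.16 (all genes: 1.19% higher, 2.52% lower). An unadjusted p under 0.05 was found for 8 of the 24 on the lower side, a larger share than in all genes (9.77%). On the higher side it was found for 1 (4.17%, against 7.88% of all genes). Groups did not overlap in 9 lower genes of the 24, a larger share than in all genes (13.3%), and in 1 higher gene (4.17%, against 10.6%). ERI1, an exonuclease that trims the stem-loop end and takes part in histone mRNA decay, read 8.17, 8.83 and 8.83 in the siChe-1 arrays, against 7.69, 7.79 and 7.54 in the control arrays. It was 1.91-fold higher with groups that did not overlap (0.93 ± 0.18 SE, limma adjusted p = 0.0199). LSM1, part of the cytoplasmic LSM ring that promotes decay of mRNAs, read 7.03, 6.78 and 6.94 in the siChe-1 arrays, against 7.43, 7.48 and 7.50 in the control arrays, and was 1.47-fold lower (adjusted p = 0.0318). CDC25A, the phosphatase that activates CDK2 at the start of S phase, read 6.73, 6.59 and 6.63 in the siChe-1 arrays, against 7.75, 7.32 and 7.41 in the control arrays, and was 1.79-fold lower (adjusted p = 0.00866). In both, every siChe-1 array lay below every control array.

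The central regulators showed no difference past the threshold. SLBP read 8.62, 8.01 and 8.21 in the siChe-1 arrays, against 8.53, 8.43 and 8.34 in the control arrays, a difference of -0.16 (interval -0.51 to 0.20). NPAT differed by -0.24 (interval -0.61 to 0.12), with 7.19 in siChe-1 replicate 1 and 7.87 in replicate 2. ERI1 and LSM1 each passed in 1 of the 6 fits that left out an array, the fit without siChe-1 replicate 1, and CDC25A in all 6.

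Variant histone genes are made outside S phase as well. Of 9, 0 passed by limma (against 3.72% of all genes), with a median of 0.12. At an unadjusted p under 0.05, 0 were lower (against 9.77% of all genes) and 1 was higher (11.1%, against 7.88%). That gene was H2AZ2, which encodes an H2A.Z protein (8.86 ± 0.03 in the siChe-1 arrays and 8.44 ± 0.16 in the control arrays, SD, n = 3 each, limma adjusted p = 0.0993). MACROH2A2 differed by 0.23 (adjusted p = 0.386). The 26 histone chaperones had a median of -0.088, and limma called 0 of them. At an unadjusted p under 0.05, 1 was higher (3.85%, against 7.88% of all genes) and 2 were lower (against 9.77%). CHAF1B, a subunit of the assembly factor CAF-1, differed by 0.32 (adjusted p = 0.175), and UBN1, of the HIRA complex for variant H3, by -0.38 (adjusted p = 0.190).

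Genes of DNA replication, which share S phase with histone synthesis, lay mostly below 0. Of 37, 0 rose (against 1.19% of all genes), 2 fell (against 2.52%) and 35 did not pass, with a median of -0.17 and 29 below 0. At an unadjusted p under 0.05, 13 of the 37 were lower, a larger share than in all genes (9.77%). Higher at that threshold was 1 gene (2.7%, against 7.88% of all genes). Groups did not overlap in 14 lower genes of the 37, a larger share than in all genes (13.3%), and in 1 higher gene (2.7%, against 10.6%). GINS3, of the replicative helicase, read 6.96, 7.44 and 7.22 in the siChe-1 arrays, against 7.70, 7.97 and 7.95 in the control arrays, and was 1.59-fold lower (limma adjusted p = 0.0387). POLA2, of DNA polymerase alpha, was 1.41-fold lower (adjusted p = 0.0487). Of the 6 fits that left out an array GINS3 passed in 2 and POLA2 in 1. PCNA, the sliding clamp, differed by -0.34 (adjusted p = 0.253). The 30 G2 and mitosis genes had a median of -0.0065, and limma called 0 of them. At an unadjusted p under 0.05, 3 of the 30 were higher (10%, against 7.88% of all genes) and 1 was lower (against 9.77%). NUF2, of the kinetochore, differed by 0.47 (adjusted p = 0.144), KIF20A, a mitotic kinesin, by 0.31 (adjusted p = 0.230) and CCNB1, cyclin B1, by 0.23 (adjusted p = 0.403). All these lists were compared in the same arrays, and the difference between them and the histone genes was not tested.

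**Figure D5:**
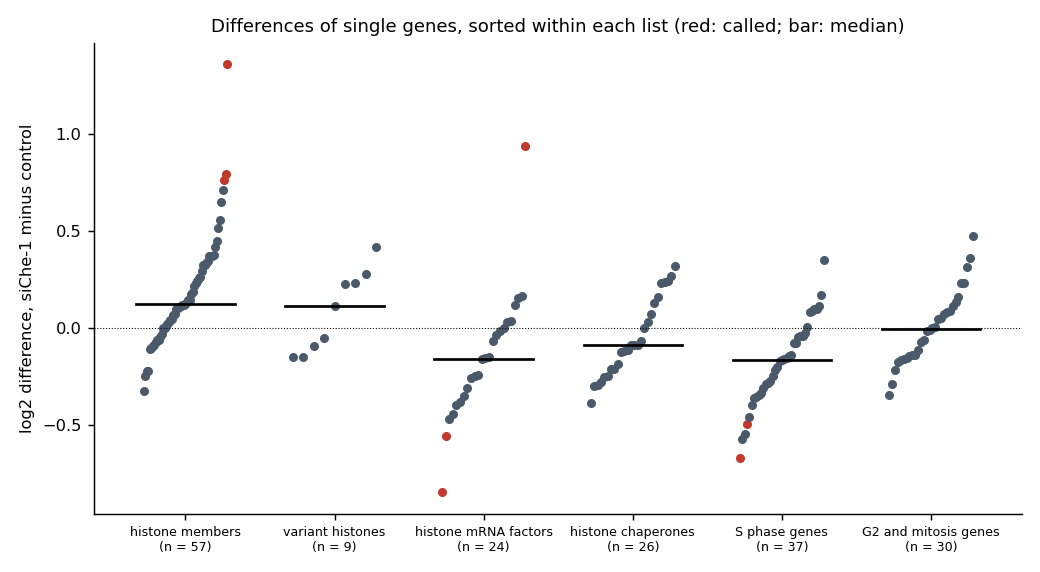
Log2 difference, siChe-1 minus control (vertical axis), of each gene in the histone set and 5 related lists (horizontal axis), sorted within each list, with called genes in red and the median as a bar. The histone median is 0.13 and the medians of the histone mRNA factors and S phase genes are -0.16 and -0.17.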

How the data were processed

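Gene expression was measured on 6 single-colour arrays. The submitters' processing notes name RMA and Affymetrix Expression Console, and the deposited values are log2 intensities on the RMA scale. Settings and build are not given in the sources used here. RMA equalises array distributions and compresses dim genes. Of 33297 probe sets, 19460 had 1 symbol, 1754 several and 12083 none listed. Of several probe sets for a gene the brightest was used, which left 18417 genes. No histone gene had more than 1.

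The comparison used lmFit and eBayes of limma 3.58.1 (R 4.3.3), with dim genes kept, no covariates and Benjamini-Hochberg adjustment over all genes and a threshold of 0.05. No set test was run. The fit was tested on simulated data with 200 changed genes. It recovered 25.4% of 1.5-fold, 79.1% of 2-fold and 100% of 4-fold changes, and 2.86% of its calls were false. A gene that did not pass is therefore not shown to be unchanged. Precision is limited by having 3 arrays a group. The members and lists were chosen with earlier results of these data known. Some genes of the lists are not reported here.

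Named were AATF, each called histone gene, per type the 3 largest differences and the 2 brightest probe sets, and per list up to 4 called genes (otherwise the 2 smallest p), with SLBP, NPAT, PCNA and CCNB1. Every other histone gene in the text and the markers were named after the values were seen. The level of 5, the motifs, the printed windows and the descriptions by array, chromosome and pair were likewise chosen after. Replicate numbers 1 to 3 occur in both groups with no statement that they mark a shared culture, so no block was used. Alternatives were arrays centred on their medians, a further quantile normalization, a filter that dropped the dimmest 40% of genes, averaged probe sets, testing every probe set, an intensity trend with robust prior, array weights, the replicate block, a threshold of 0.01 and leaving out each array.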

Additional observations from a re-analysis of the deposited data

How the results depend on the processing

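The AATF difference and the direction of the 5 type medians kept their sign under every alternative run, although the H3 median was 0.00013 with arrays centred on their medians. AATF ranged from 1.05 to 1.22 when an array was left out. The histone median ranged from 0.099 to 0.14 then, with H1 at 0.059 to 0.22, H2A at 0.11 to 0.17, H2B at 0.13 to 0.26, H3 at 0.041 to 0.12 and H4 at 0.19 to 0.31. Array weights gave medians of 0.049 for H1, 0.12 for H2B and 0.17 for H4, and turned H1-4 to -0.051. No histone gene was called lower under any alternative. The number of histone genes called higher (3) was 0 with every probe set tested and 0 at an adjusted p under 0.01. It was 12 with array weights, where 7.32% of all genes were called higher, and 6 with the replicate block, where 2.26% were. When an array was left out it was 0 to 5, where 0.342% to 4.01% of all genes were called higher. Array weights gave siChe-1 replicate 1 a weight of 0.22 and siChe-1 replicate 3 a weight of 3.38. All genes called (685) numbered 408 with every probe set tested, 2865 with array weights, 1145 with the replicate block, 261 at an adjusted p under 0.01, and 272 to 1565 when an array was left out.

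Histone mRNA factors called lower (2) numbered 1 after a further quantile normalization, 1 with every probe set tested, 7 with array weights, 1 at the stricter threshold, and 1 to 5 when an array was left out. Those called higher (1) numbered 0 with every probe set tested and at the stricter threshold, and 0 to 1 when an array was left out. S phase genes called lower (2) numbered 1 after a further quantile normalization, 1 with an intensity trend and robust prior, 0 with every probe set tested, 8 with array weights, 4 with the replicate block, 0 at the stricter threshold, and 0 to 3 when an array was left out. With array weights 2 variant histones were higher, 1 chaperone was higher and 2 lower, and 4 mitotic genes were higher (all genes: 1348 higher, 1517 lower). Leaving out an array gave 0 to 1 chaperones and 0 to 3 mitotic genes higher, where 0.342% to 4.01% of all genes were called higher. Of all 18417 genes, those called lower (465) numbered 444 after a further quantile normalization and 1517 with array weights. They numbered 729 with the replicate block and 199 to 826 when an array was left out. In either direction, 623 were called with an intensity trend and robust prior, 408 with every probe set tested and 261 at the stricter threshold. The causes were not tested. Fits with an array left out have fewer samples, yet without siChe-1 replicate 1 more genes were called (1565). The fit over every probe set was made anew on all 33297 probe sets, which changed both the variance estimates and the number of tests.

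Changes of a median were judged against the spread between arrays of the same group. Deviations of same-numbered arrays from their group means correlated at 0.23, 0.064 and -0.045. Arrays with different numbers were not compared, so these values cannot decide whether the numbers pair the samples. The replicate block called H2AC15, H2BC14 and H4C2 beside the 3 genes reported, with H2BC7 at a limma adjusted p of 8.98e-06.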

Other observations

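Probe sets listed for several symbols, with at least 1 of these histone genes among them, were outside the gene rule. There were 20, of which 17 had distinct values. Of the 17, 11 lay above 0 and 6 below, from -0.29 to 0.46 on the log2 scale (siChe-1 minus control), with a median of 0.078. By limma over all 33297 probe sets 0 of the 17 passed, and 1 had an unadjusted p under 0.05. That probe set, listed for H2AC18, H2AC19, H2AC20 and H2AC21, averaged 11.20 in the siChe-1 arrays and 11.49 in the control arrays.

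The H2A genes were also divided by the octamer. The 10 with a match in the 250 bases before the start had differences from -0.11 to 0.24, with a median of 0.12. The 3 without a match, H2AC13, H2AC15 and H2AC25, differed by 0.79, 0.56 and -0.24. These 3 had means over 5, while H2AC1, H2AC8, H2AC14, H2AC16 and H2AC17 among the 10 had means under 5. All dim H2A genes with a promoter thus fell on the side with a match. The rest of the 10 had means over 5, with differences from -0.091 to 0.23. In H2B the 13 with a match had a median of 0.19 and the 3 without had 0.26. These divisions were made after the values were seen and were not tested.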
